A study of Mus musculus with 39 samples.

Results

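A set of 10 genes that encode histone chaperones and nucleosome assembly factors was followed from the mouse oocyte to fertilized and cloned 2-cell embryos. They were *Chaf1a*, *Chaf1b*, *Asf1a*, *Asf1b*, *Hira*, *Nasp*, *Nap1l1*, *Daxx*, *Ssrp1* and *Supt16*, and their probes were found by matching the transcript that the array's design gives for each probe to the RefSeq mouse annotation. All 10 genes were measured, by 14 of the 41174 probes of the array, and all 14 probes were among the 39520 that passed the filter on dim probes (an intensity of at least 10 units on at least 1 IVF or cloned array). *Asf1a* and *Nasp* had 2 probes each and *Hira* had 3; values are those of the lead probe, which was well above background on the most arrays, unless another is named. The lead probe of every gene was well above background on all 39 arrays.

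Adult females of the strain (B6xDBA/2)F1 gave the recipient oocytes and the nuclear donor cells. The groups were unfertilized metaphase II oocytes (OC, n = 7), 2-cell embryos from in vitro fertilization (IVF, n = 6), 2-cell embryos cloned from cumulus cells by somatic cell nuclear transfer (SCNT) without trichostatin A (TSA(–), n = 8) or with it (TSA(+), n = 6), clones injected with *Spi-C* mRNA at 1.0 or 0.1 mg/ml at the pronuclear stage (n = 4 each, together Spi-C NT), and the cumulus cells used as donors (Cumulus, n = 4). TSA blocks histone deacetylases; TSA(+) embryos were kept in 5 nM of it for the first 8 h after activation. All 2-cell embryos had been cultured for 24 h. Each array held RNA from 10 pooled oocytes or embryos or from 500 cumulus cells, amplified in 2 rounds and labelled with Cy3. The Spi-C NT arrays had no group injected with another mRNA or with buffer among the groups analysed here.

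Histone chaperones escort histones from synthesis to DNA and build or take apart nucleosomes. CAF-1, of which *Chaf1a* and *Chaf1b* encode the large and middle subunits, places newly made H3 and H4 behind the replication fork. ASF1 proteins pass H3 and H4 to CAF-1 or to HIRA, which places the variant H3.3 outside replication, while DAXX places H3.3 at repeats with ATRX. NASP keeps a pool of free H3 and H4, NAP1L1 carries H2A and H2B, and SSRP1 and SPT16 (*Supt16*) form FACT, which loosens and restores nucleosomes ahead of and behind polymerases. In the oocyte the messages for such proteins are stored from growth, and after fertilization or nuclear transfer the embryo breaks down much of that store and starts its own transcription by the 2-cell stage.

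Levels are log2 intensities after the 75th percentile of the same array was subtracted, so they are shares of the bulk of the transcripts and not amounts per embryo, and levels of different probes cannot be compared. The 75th percentile itself was dimmest in OC (median intensity 373 units) and brightest in Spi-C NT (2364 units at 1.0 mg/ml and 2523 units at 0.1 mg/ml); the medians of the other groups were 918 to 1417 units. The median share of probes well above background was 57.5% in OC, 63.0% in Cumulus and 71.6 to 73.2% in the embryo groups. All 6 oocyte markers were higher in OC than in Cumulus without overlap, and 5 of the 8 cumulus markers were higher in Cumulus than in OC without overlap; *Foxl2* was lower in Cumulus (mean −5.75) than in OC (−4.43), and *Has2* and *Nr5a2* overlapped between these groups. Of 3 measured markers of the 2-cell embryo, *Zfp352* and *Tcstv3* were higher in IVF than in Cumulus without overlap and *Eif1a* overlapped. The OC, IVF, TSA(–) and TSA(+) arrays shared a scanner and 9 slides, but the Cumulus and Spi-C NT arrays were on slides of their own (1 and 2 slides), on another scanner and extracted with another software version, so for these groups the group cannot be told apart from slide, scanner and version.

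**Figure D1:**
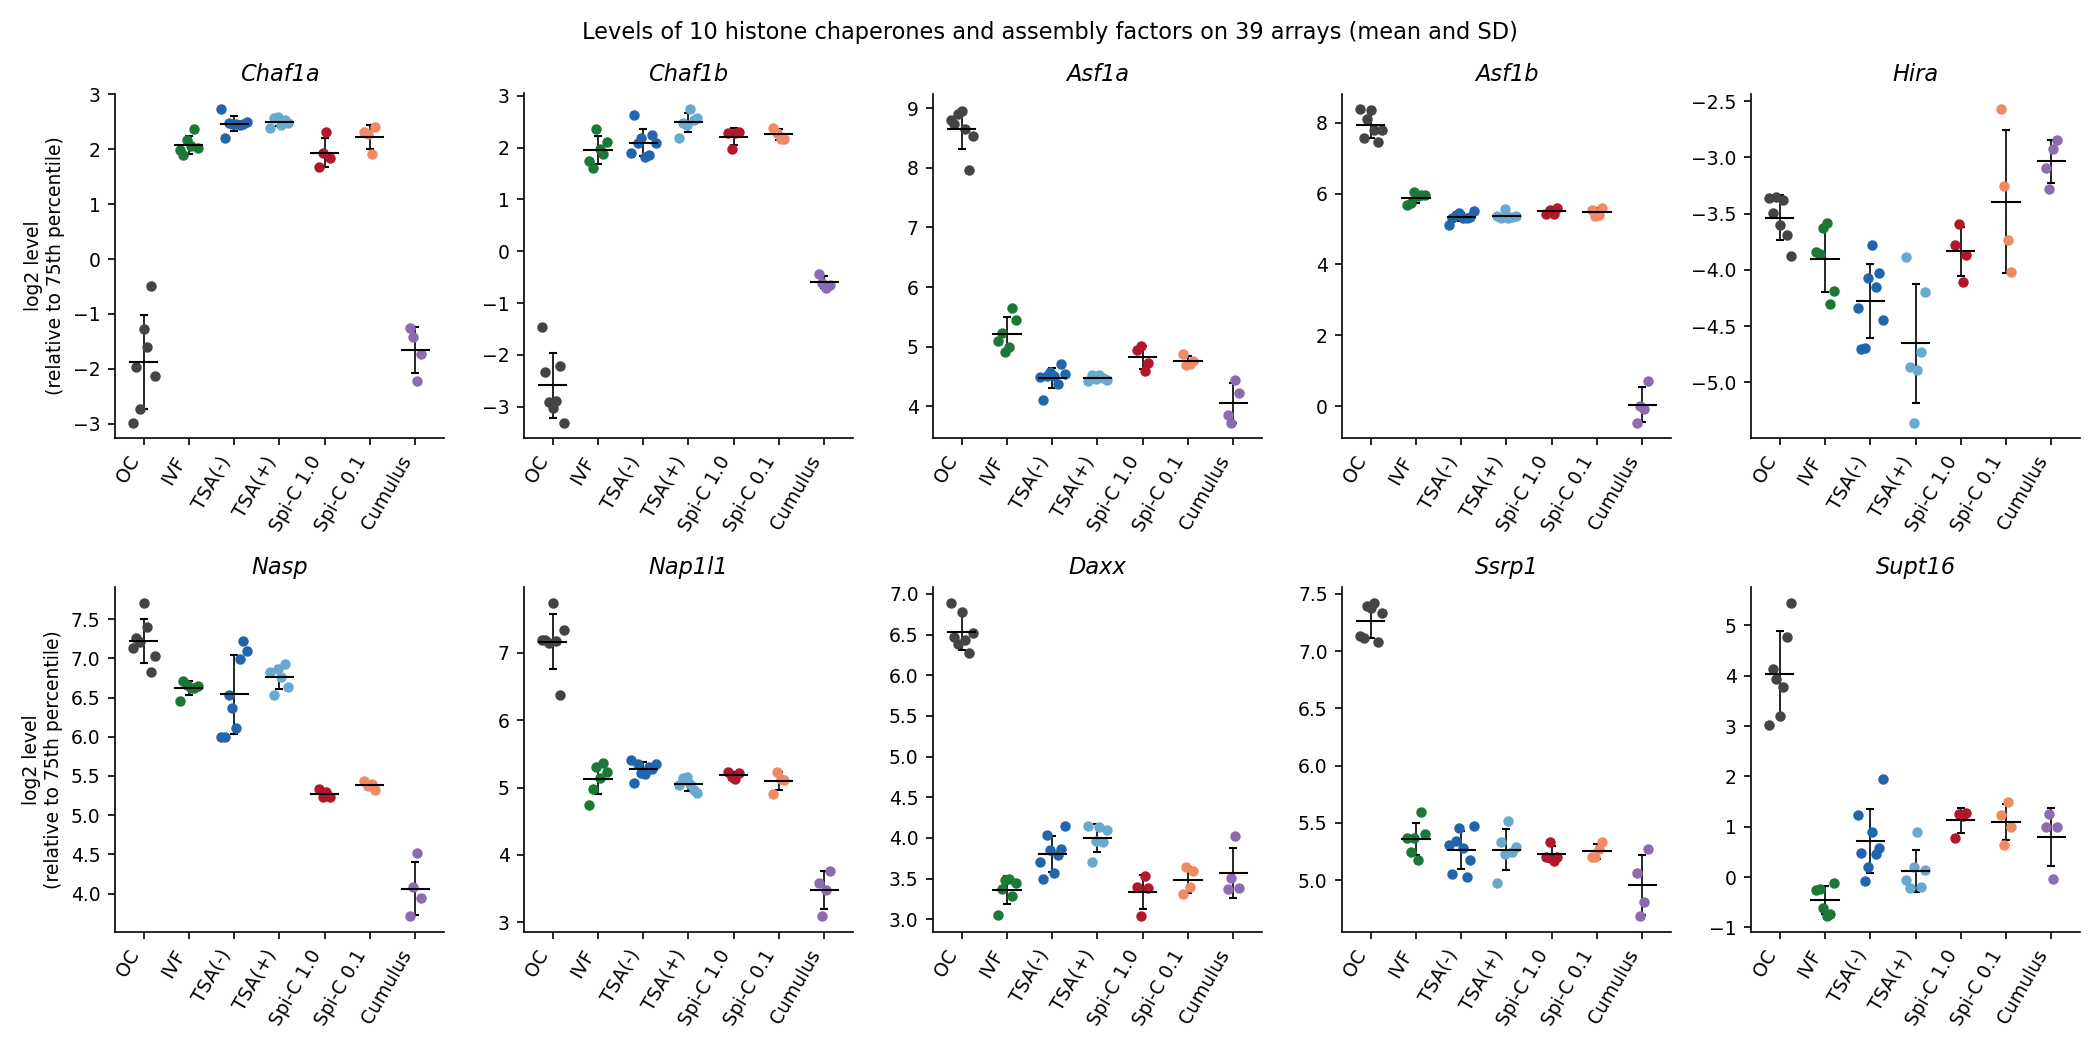
Levels of the 10 genes (lead probes) on each of 39 arrays, as log2 intensity relative to the 75th percentile of the array on the vertical axis, in 7 groups; points are arrays, horizontal lines are group means and bars are SDs. *Chaf1a* and *Chaf1b* were low in OC and Cumulus and high in the embryos (on all 3 scalings tried), *Asf1a*, *Daxx* and *Supt16* were highest in OC, and *Nasp* was lower in both Spi-C NT groups than on any TSA(–) array.

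The step from the oocyte to the fertilized 2-cell embryo divided the genes. The CAF-1 subunits rose by 3.97 and 4.53 on the log2 scale on the main scaling and kept that direction on the others, and 7 genes fell, with log2 differences of −4.50 for *Supt16*, −3.43 for *Asf1a* and −3.17 for *Daxx* that also kept their direction. In this comparison 9 of the 10 genes were called at an adjusted p under 0.01 (limma with Benjamini-Hochberg adjustment over all 39520 probes), 2 higher and 7 lower in IVF, where 66% of all probes were called, 23.3% higher and 42.7% lower. With so many probes called, the count says little of these genes in particular. Over all probes the median log2 difference was −0.88, and 4 of the 10 genes lay above it; it was −1.55 when each array was centred on its median and −0.29 after quantile normalization, and the direction of 4 of the 7 falls depended on this choice.

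*Chaf1a* in OC ranged from −2.98 to −0.48 with a median of −1.97, and in IVF from 1.91 to 2.37 with a median of 2.04. Every IVF array was thus above every OC array, and the difference was 3.97 ± 0.25 (SE, adjusted p = 1.79e-14), a 15.6-fold rise. *Chaf1b* ranged from −3.31 to −1.47 (median −2.89) in OC and from 1.61 to 2.36 (median 1.93) in IVF, again without overlap. Its rise was 4.53 ± 0.21 (adjusted p = 1.09e-17), or 23.2-fold. The rises were 3.29 and 3.86 with arrays centred on their median and 3.74 and 4.20 after quantile normalization. On the 2 slides that held both groups, *Chaf1a* was higher in IVF by 3.52 and 3.67 and *Chaf1b* by 4.50 and 4.53. In a pool, fewer embryos that carry a message and less message in each embryo cannot be told apart.

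The 250 bases before the annotated start of these genes are shown in GRCm38.p6 (from RefSeq), with those of the ASF1 genes set beside them. The ASF1 genes moved the other way on the main scaling. After quantile normalization the difference of *Asf1b* was 0.27 and not called, so only *Asf1a* of that pair fell on every scaling. The words were chosen with the results known. Capitals mark matches on either strand to the E2F words and to CCAAT, which did not overlap in these windows. The E2F word searched first was TTCCCGC, as known from cell-cycle promoters. A close variant of that word, TTCGCGC, was counted as well. The same search took in TTGCCGC as a further variant of the family. The last variant of the E2F family that was counted was TTGGCGC, and words on the minus strand appear here as their reverse complement. A match is a match of letters and no binding was measured. The window of *Chaf1a* lies at chr17:56040166-56040415, *Chaf1b* at chr16:93883651-93883900, *Asf1a* at chr10:53596711-53596960 and *Asf1b* at chr8:83955444-83955693, all on the plus strand.
Chaf1a: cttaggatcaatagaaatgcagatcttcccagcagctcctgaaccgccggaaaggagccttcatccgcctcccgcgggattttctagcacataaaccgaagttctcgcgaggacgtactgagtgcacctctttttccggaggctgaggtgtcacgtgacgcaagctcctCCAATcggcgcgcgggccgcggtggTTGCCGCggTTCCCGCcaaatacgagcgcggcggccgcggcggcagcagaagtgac
Chaf1b: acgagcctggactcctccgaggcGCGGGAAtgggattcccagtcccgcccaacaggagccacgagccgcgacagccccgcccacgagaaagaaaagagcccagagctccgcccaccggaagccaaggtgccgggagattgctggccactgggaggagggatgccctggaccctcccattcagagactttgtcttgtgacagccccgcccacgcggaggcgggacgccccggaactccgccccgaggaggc
Asf1a: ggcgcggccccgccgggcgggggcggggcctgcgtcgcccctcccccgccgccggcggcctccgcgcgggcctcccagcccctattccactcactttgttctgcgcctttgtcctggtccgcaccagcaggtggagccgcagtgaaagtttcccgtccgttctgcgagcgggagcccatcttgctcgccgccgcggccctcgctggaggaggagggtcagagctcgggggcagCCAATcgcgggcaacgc
Asf1b: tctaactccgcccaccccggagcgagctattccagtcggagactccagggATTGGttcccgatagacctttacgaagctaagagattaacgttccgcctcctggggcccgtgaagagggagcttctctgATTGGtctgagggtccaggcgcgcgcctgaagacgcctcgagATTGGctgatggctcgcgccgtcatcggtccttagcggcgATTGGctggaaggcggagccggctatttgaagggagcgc

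*Chaf1a* held 2 E2F words, at 56 and 47 bases before the start, beside a CCAAT box at 81 bases, and *Chaf1b* held 1 E2F word on the minus strand at 227 bases. Neither ASF1 window held an E2F word; *Asf1a* had 1 CCAAT box and *Asf1b* had 4, all on the minus strand. Among all 32851 promoter windows of this length, 7.89% held an E2F word, 33.8% a CCAAT box and 6.91% the ETS word CCGGAAG, counted because Spi-C is an ETS factor. Of the 13 windows of the 10 genes (3 of them of *Daxx* and 2 of *Ssrp1*), 4 held an E2F word, those of *Chaf1a*, *Chaf1b*, *Nap1l1* and *Ssrp1*. E2F words were thus in windows of genes that rose and of genes that fell on this scale. The ETS word was found in windows of 4 genes (*Chaf1b*, *Hira*, *Daxx* and *Supt16*).

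*Asf1a* ran in OC from 7.96 to 8.95 (median 8.74) against 4.90 to 5.65 (median 5.15) in IVF. The groups did not overlap, and the difference of −3.43 ± 0.16 (adjusted p = 8.73e-18) was 10.8-fold and remained at −1.10 after quantile normalization; its second probe overlapped between the groups and also fell (−1.23 ± 0.25, adjusted p = 6.70e-05). *Asf1b*, the ASF1 form of dividing cells, ranged from 7.46 to 8.38 (median 7.80) in OC and from 5.69 to 6.03 (median 5.94) in IVF, a difference of −2.04 ± 0.16 (adjusted p = 2.43e-12) that turned to 0.27, no longer called, after quantile normalization.

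Of the H3.3 routes, *Daxx* fell, while the probes of *Hira* differed among themselves. *Daxx* in OC was between 6.27 and 6.89 (median 6.47) and in IVF between 3.05 and 3.5 (median 3.41), with no overlap and a difference of −3.17 ± 0.14 (adjusted p = 4.62e-18), or −1.17 after quantile normalization. *Hira* was dim, between −3.87 and −3.35 (median −3.49) in OC and between −4.31 and −3.58 (median −3.85) in IVF, and its difference of −0.36 ± 0.20 was not called (adjusted p = 0.0943), though it was on the other scalings (−1.04 and −1.10). Its 3 probes differed in direction. Probe A_52_P98232 gave 2.43 ± 0.34 (adjusted p = 2.53e-07), although it was well above background on only 2 of 7 OC arrays, and probe A_52_P49712 gave 0.63 ± 0.60 (adjusted p = 0.348) with 4 of 7 OC arrays well above background. No direction can therefore be given for *Hira* here.

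**Figure D2:**
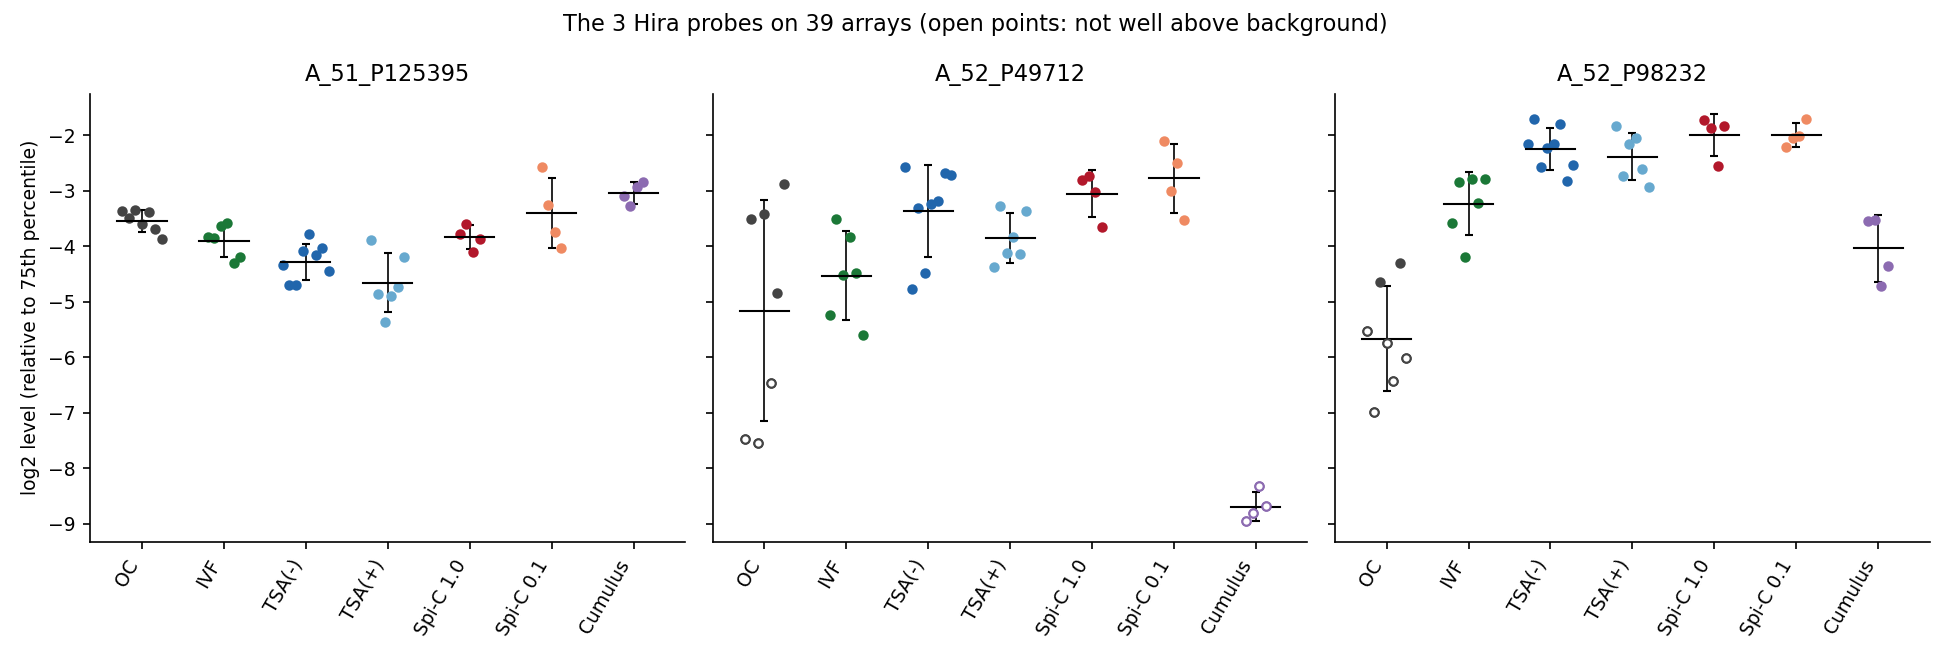
The 3 *Hira* probes, with the log2 level relative to the 75th percentile on the vertical axis and 7 groups on the horizontal axis; points are arrays (open where not well above background), lines are means and bars are SDs. The lead probe A_51_P125395 was higher in Cumulus than in IVF by 0.86, whereas A_52_P49712 was not well above background on any Cumulus array.

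Both subunits of FACT fell on this scale. *Supt16* spread widely in OC, from 3.03 to 5.45 (median 3.93), and lay between −0.78 and −0.12 (median −0.44) in IVF, with no overlap; its difference of −4.50 ± 0.33 (adjusted p = 5.07e-13) remained at −3.46 after quantile normalization. *Ssrp1* was tight in both groups, from 7.08 to 7.42 (median 7.33) in OC and 5.18 to 5.60 (median 5.37) in IVF, with a difference of −1.91 ± 0.12 (adjusted p = 3.28e-14) that became 0.31 after quantile normalization. The FACT subunits act as a pair, yet only the difference of *Supt16* kept its sign under the 3 scalings.

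*Nap1l1* ranged from 6.37 to 7.74 (median 7.19) in OC and from 4.75 to 5.36 (median 5.19) in IVF, a difference of −2.04 ± 0.16 (adjusted p = 1.38e-12) that became 0.14 after quantile normalization. *Nasp* changed least of the called genes, from 6.83 to 7.71 (median 7.21) in OC to 6.45 to 6.71 (median 6.64) in IVF. Its difference of −0.60 ± 0.19 (adjusted p = 0.00600) became 1.56, called in the other direction, after quantile normalization (adjusted p = 3.48e-10). It also lost its call without OC replicate 4 or 5 or without IVF replicate 1, 4 or 5 (adjusted p = 0.0101 to 0.0173). The call was lost too by Tukey's HSD (its p-values adjusted over all probes, 0.0322), with normexp (0.0181) and with replicate number as a block (0.0130). The second *Nasp* probe overlapped between the groups and was not called (−0.27 ± 0.32, adjusted p = 0.450). The intensity of *Nasp* before scaling was lower in OC (38151 to 72415 units) than in IVF (100460.7 to 119249.8), while the 75th percentile of the OC arrays was lower as well. On the slides that held both groups, all 7 genes that fell were lower in IVF on each of the 2 slides. *Hira*, not called, was lower on both as well (−0.47 and −0.06). These are the same arrays on the main scaling, so they cannot bear on the falls that changed sign with quantile normalization. The share of all probes lower on both slides was not computed.

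**Figure D3:**
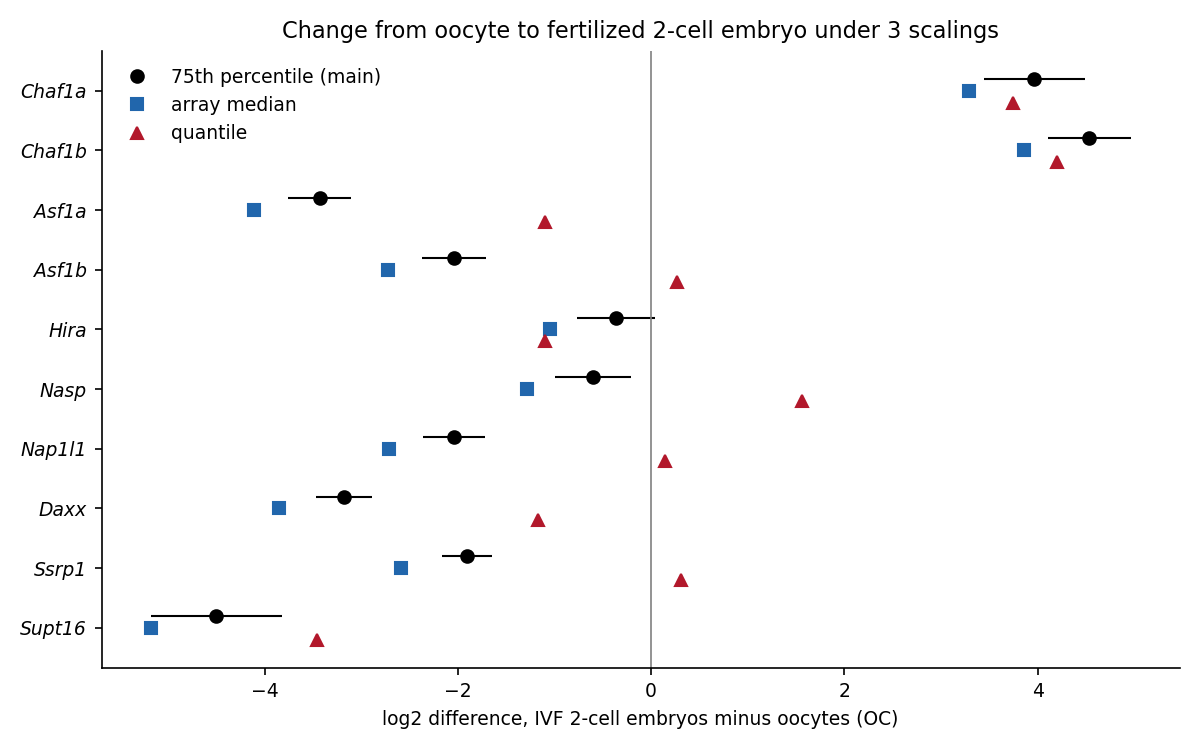
Log2 difference between IVF 2-cell embryos and OC (horizontal axis) for the 10 genes, with arrays scaled to the 75th percentile (circles with 95% intervals), to the median (squares) and by quantile normalization (triangles). *Chaf1a* and *Chaf1b* lie above 3 on each scaling, *Asf1a*, *Daxx* and *Supt16* below −1, and *Asf1b*, *Nasp*, *Nap1l1* and *Ssrp1* change sign with quantile normalization.

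The same step in untreated clones gave 2 genes higher and 8 lower in TSA(–) than in OC, all 10 called, where 70.3% of all probes were called (23.5% higher and 46.8% lower); this comparison shares the OC arrays with the one above. *Chaf1a* rose by 4.35 ± 0.24 and *Chaf1b* by 4.68 ± 0.20. *Asf1a* fell by 4.17 ± 0.15, *Supt16* by 3.33 ± 0.31 and *Daxx* by 2.73 ± 0.13, and each kept its direction on the other scalings and was lower in TSA(–) on all 4 slides that held both groups. The slides hold the same arrays, and the share of all probes lower on all 4 was not computed. *Asf1b* (−2.58) kept its sign but not its call after quantile normalization (−0.12). *Ssrp1* (−2.0), *Nap1l1* (−1.89) and *Nasp* (−0.68) turned to 0.37, 0.46 and 1.68 with that scaling, all called. *Nasp* was not called in a fit of only the groups compared (adjusted p = 0.0119). Its second probe gave −0.09 and was not called (adjusted p = 0.777). The fall of *Hira* by 0.74 ± 0.18 (adjusted p = 0.000614) came from its lead probe, and the other probes gave 1.79 and 3.42.

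Of 39 other genes for chaperones and their partners measured on the array, 11 rose and 21 fell from OC to IVF, 82.1% called against 66% of all probes, with a median log2 difference of −1.20 against −0.88 over all probes. Among the called genes well above background on every array of both groups, the largest change was in *Hat1*, the acetyltransferase of newly made H4, which fell by 5.18 ± 0.16. *Nap1l3*, of the NAP family, fell by 4.36 ± 0.39, and *Mms22l*, which works at stalled forks, by 3.73 ± 0.22. *Nap1l5* was called higher, but it was well above background on only 1 of 7 OC arrays and gives no exact size. These directions held on all 3 scalings, while 3 others of the 32 called genes (*Tspyl1*, *Anp32b* and *Dek*) changed sign with quantile normalization and *Supt6* with centring on the median. From OC to TSA(–), 10 rose and 21 fell, 79.5% called against 70.3% of all probes, with a median of −0.91 against −1.0 over all probes; *Anp32b* and *Dek* changed sign with quantile normalization and *Atrx* and *Tspyl2* with centring on the median. *Nap1l3* had a difference of −6.1 ± 0.36, and *Hat1* fell by 4.35 ± 0.15. *Nap1l5* and *Znhit1* were called higher, but they were well above background on only 1 and 2 of 7 OC arrays and give no exact size.

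Clones were then compared with fertilized embryos of the same stage. In TSA(–), *Supt16* was higher than in IVF and both ASF1 genes were lower, and the other 7 genes were not called. These 3 of 10 calls compare with 18.8% of all probes (8.49% higher and 10.3% lower), and over all probes the median log2 difference was −0.05. *Asf1a* in TSA(–) was between 4.11 and 4.70 (median 4.51), below all IVF arrays (4.90 to 5.65). It fell by 0.74 ± 0.15 (adjusted p = 0.000417), and it was lower on each of the 3 slides that held both groups, with differences from −0.98 to −0.62. Its second probe overlapped between the groups and was not called (−0.25 ± 0.24, adjusted p = 0.502). The slides hold arrays of the main fit, so they are no separate support, here or for the genes that follow. The share of all probes with the same sign on all 3 slides was not computed.

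*Asf1b* in TSA(–) lay between 5.12 and 5.52 (median 5.32) and below the IVF range of 5.69 to 6.03. Its fall of 0.54 ± 0.16 was close to the threshold (adjusted p = 0.00952) and was called without IVF replicate 1 or TSA(–) replicate 8, but not when any of the other 12 arrays was left out (adjusted p = 0.0117 to 0.0245), nor by Tukey's HSD (0.0362), after quantile normalization (−0.39, 0.0225) or with arrays centred on the median (−0.52, 0.0136). The call was lost with replicate number as a block as well (adjusted p = 0.0165). On the 3 slides that held both groups the differences of *Asf1b* were −0.63 to −0.32. *Supt16* ranged from −0.09 to 1.95 (median 0.53) in TSA(–), just above the IVF range of −0.78 to −0.12. Its rise of 1.17 ± 0.32 (adjusted p = 0.00648) was lost without IVF replicate 3, 4 or 5 or TSA(–) replicate 1, 5 or 8 (adjusted p = 0.0117 to 0.0176, difference 0.99 without TSA(–) replicate 8), and by Tukey's HSD (0.0611). With replicate number as a block the difference was 0.87 and not called (adjusted p = 0.0390). *Supt16* was higher in TSA(–) on 3 of 3 slides, by 0.74 to 1.66. *Daxx* had a difference of 0.45 ± 0.14 (adjusted p = 0.0143), with 3.49 to 4.14 (median 3.82) in TSA(–) against 3.05 to 3.5 in IVF, an overlap of the extremes. That difference passed the threshold without TSA(–) replicate 2 (0.49, adjusted p = 0.00849) and after quantile normalization (0.61, adjusted p = 0.000177). Without IVF replicate 3, 4 or 5 or TSA(–) replicate 1 or 5, the number of genes called went from 3 to 1, and *Asf1a* was the gene that stayed.

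The CAF-1 subunits overlapped between TSA(–) and IVF. *Chaf1a* had a difference of 0.38 (95% interval −0.12 to 0.89) and *Chaf1b* of 0.15 (−0.27 to 0.57). *Ssrp1* had −0.10 (−0.34 to 0.15) and *Nap1l1* 0.15 (−0.17 to 0.46). *Nasp* had −0.08 (−0.46 to 0.30), and neither *Ssrp1* nor *Nasp*, both uncalled, kept its sign after quantile normalization (0.06 and 0.11). The spread of *Nasp* in TSA(–) was wide. The 8 TSA(–) arrays ran from 5.99 to 7.22 with an SD of 0.50, against 0.09 in IVF, and replicates 6, 7 and 8 (7.0, 7.22 and 7.10) lay above the 6 IVF arrays while the other 5 (5.99 to 6.54) lay below 5 of the 6. The second *Nasp* probe was also highest in replicates 6, 7 and 8 (0.05, 0.42 and 0.45, against −1.45 to −0.58 in the others). These 3 arrays were on 3 different slides, and replicate 5, on the slide of replicate 8, gave 6.11.

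In TSA(+), *Daxx* was higher than in IVF, *Asf1a* was lower, and *Hira* was called lower on its lead probe. The count of 3 of 10 genes compares with 18.9% of all probes (7.83% higher and 11.1% lower), and the median over all probes was −0.23, −0.02 with arrays centred on the median and 0.01 after quantile normalization. *Daxx* ranged from 3.70 to 4.15 (median 4.03), above every IVF array, with a rise of 0.64 ± 0.15 (adjusted p = 0.00130) that was 0.86 and 0.79 on the other scalings. It was higher on 3 of 3 slides that held both groups. These are the arrays of the main fit and no separate support, and *Ssrp1*, not called, was lower on all 3. *Asf1a* lay within 4.42 to 4.52, below every IVF array, and fell by 0.74 ± 0.16 (adjusted p = 0.000866). With arrays centred on the median its difference was −0.53 and not called (adjusted p = 0.0198), and its second probe gave −0.34 (adjusted p = 0.344).

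*Asf1b* in TSA(+) was between 5.31 and 5.56 (median 5.35) and did not overlap IVF, but its difference of −0.50 ± 0.17 was not called (adjusted p = 0.0232). It was called in a fit of only the groups compared (adjusted p = 0.00335) and with normexp (0.00642). *Hira* ranged from −5.36 to −3.89 (median −4.79). Its lead-probe difference of −0.75 ± 0.20 (adjusted p = 0.00578) was opposed by 0.68 and 0.85 on its other probes and was called only without IVF replicate 5 or 6 or TSA(+) replicate 1 or 6 among the arrays left out. For the other 8 arrays left out the adjusted p was 0.0115 to 0.0219. The call was also lost after quantile normalization (−0.49, adjusted p = 0.0613), with arrays centred on the median (−0.54, 0.0528), by Tukey's HSD (0.0339) and in a fit of only the groups compared (0.0319). The *Hira* call was lost with replicate number as a block too (adjusted p = 0.0135). *Chaf1a* in TSA(+) (2.39 to 2.60) lay above every IVF array, with a difference of 0.42 that was not called (adjusted p = 0.249). *Chaf1b* differed by 0.54 (95% interval 0.10 to 0.99, adjusted p = 0.0603) and *Supt16* by 0.58 (−0.12 to 1.29, adjusted p = 0.217). With normexp *Chaf1b* was called (0.58, adjusted p = 0.00309). Among the 39 other genes, 4 rose and 4 fell in TSA(–) against IVF (20.5% called against 18.8% of all probes), and 4 rose and 3 fell in TSA(+) (17.9% against 18.9%), in comparisons that share the IVF arrays. *Znhit1*, a subunit of the complex that exchanges H2A.Z, rose by 1.34 ± 0.36 and by 2.10 ± 0.39, *Npm2*, the nucleoplasmin of the egg, fell by 1.21 ± 0.24 and by 1.48 ± 0.25, and *Tspyl1* fell by 0.92 ± 0.16 and by 1.19 ± 0.17. *Nap1l3* fell in TSA(–) by 1.74 ± 0.38, and *Oip5*, a CENP-A loading factor, rose in TSA(+) by 1.05 ± 0.19. All of these kept their sign on the other scalings, though *Znhit1* in TSA(–) was not called after quantile normalization (adjusted p = 0.0548).

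**Figure D4:**
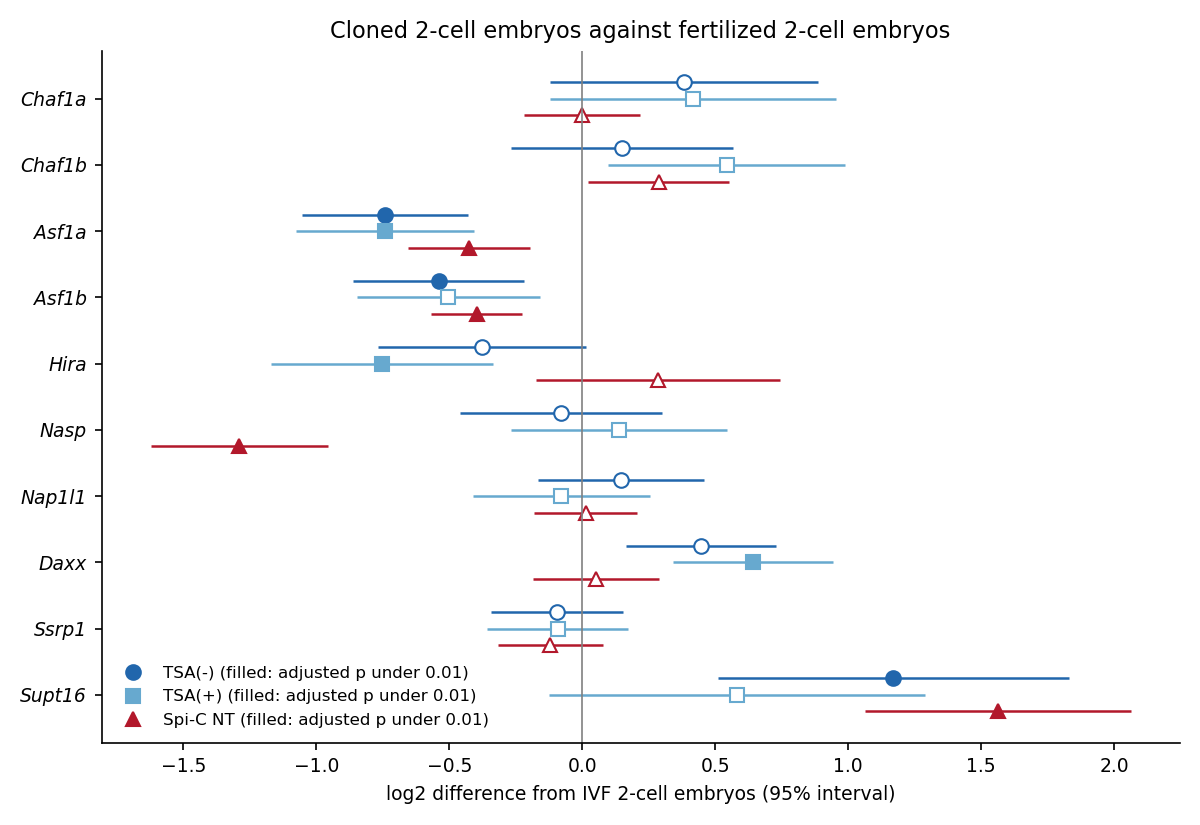
Log2 difference of TSA(–), TSA(+) and Spi-C NT 2-cell embryos from IVF embryos (horizontal axis) for the 10 genes; symbols are limma estimates, bars are 95% intervals and filled symbols have an adjusted p under 0.01. *Asf1a* is below 0 in all 3, at −0.74, −0.74 and −0.43 (−0.09, not called, for Spi-C NT after quantile normalization), while the difference of −1.29 in *Nasp* stands in Spi-C NT. The second *Asf1a* probe, not drawn, was called in none of the 3 (−0.25, −0.34 and −0.09).

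TSA itself moved none of the 10 genes past the threshold. Between TSA(+) and TSA(–), limma called 0 of 10 genes, and Tukey's HSD, its p-values adjusted over all probes as well, called 0. Over all probes limma called 0.139% (0.0455% higher and 0.0936% lower). An unadjusted limma p under 0.05 was found for 0 of the 10 genes and for 6435 of the 39520 probes. The groups overlapped for all 10 genes, and the share of all probes that overlapped was not computed. The ranges were close for *Asf1a* (4.42 to 4.52 against 4.11 to 4.70), whose difference was 0.00 with a 95% interval of −0.31 to 0.31. *Ssrp1* had 0.00 (−0.24 to 0.25), *Chaf1a* 0.03 (−0.47 to 0.54) and *Asf1b* 0.04 (−0.28 to 0.36). Wider intervals remained for *Supt16* (−0.59, −1.25 to 0.07), *Chaf1b* (0.39, −0.02 to 0.81), *Hira* (−0.38, −0.77 to 0.02), *Nap1l1* (−0.22, −0.54 to 0.09), *Nasp* (0.22, −0.16 to 0.60) and *Daxx* (0.19, −0.09 to 0.47). Of the 39 other genes 0 were called as well. *Daxx* passed the threshold against IVF in TSA(+) and not in TSA(–), and this direct comparison did not separate the groups. A single slide held both groups, and the differences on it ran from −0.54 (*Supt16*) to 0.82 (*Nasp* and *Hira*).

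Injection of *Spi-C* mRNA was set against untreated clones, with both concentrations averaged. *Nasp* fell by 1.21 on the log2 scale, also on the other scalings, and smaller falls were called for *Daxx* and *Chaf1a*. The 3 calls of 10, all lower, compare with 20.7% of all probes (9.2% lower), and the median over all probes was 0.13. *Nasp* at 1.0 mg/ml was 5.34, 5.24, 5.29 and 5.24, and at 0.1 mg/ml 5.43, 5.38, 5.40 and 5.33. Every Spi-C NT array was below every TSA(–) array, and the difference of −1.21 ± 0.15 (adjusted p = 7.32e-07) was −1.39 with arrays centred on the median and −1.0 after quantile normalization. The second *Nasp* probe gave −0.71 ± 0.23, with overlap, and was not called (adjusted p = 0.0190).

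Before scaling, the *Nasp* intensity was 79682 to 110696.7 units on the Spi-C NT arrays and 76683 to 201009.6 on the TSA(–) arrays, whereas the 75th percentile was 2115 to 2666 against 1204 to 1470. The part of that brightness in the *Nasp* result was not tested, and since Spi-C NT had a scanner and software version of its own, the injection and these cannot be told apart. The lowest TSA(–) array was at 5.99 and the highest Spi-C NT array at 5.43.

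**Figure D5:**
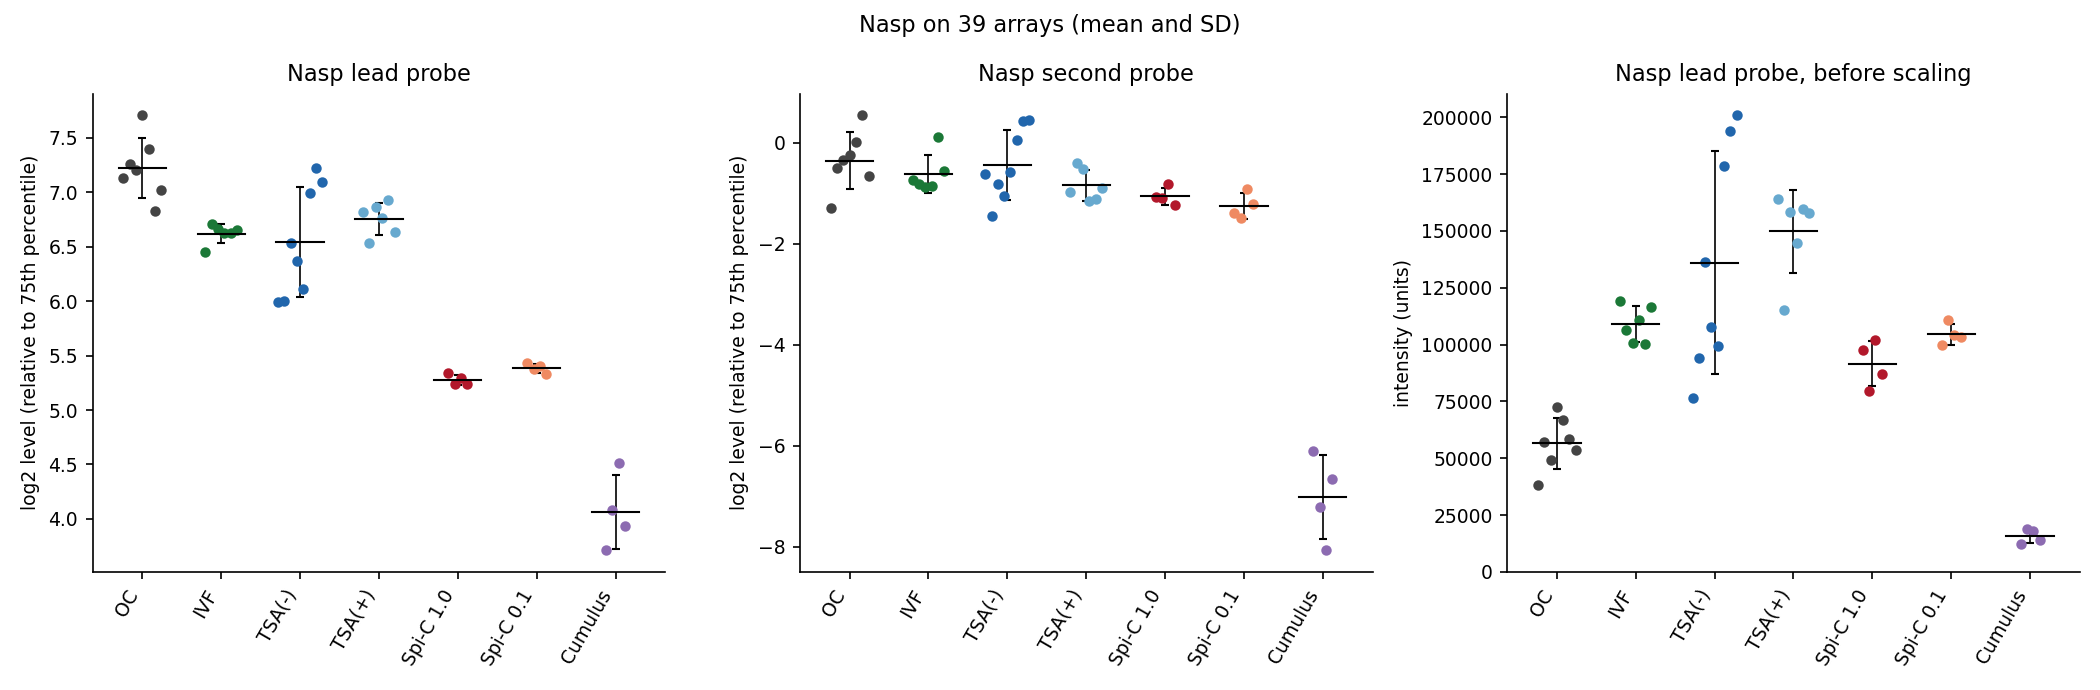
*Nasp* on 39 arrays in 7 groups, as log2 level relative to the 75th percentile for its lead and second probes (left and middle) and as the lead probe's intensity in units before scaling (right); points are arrays, lines are means and bars are SDs. On the lead probe, the 8 Spi-C NT arrays sit between 5.24 and 5.43 and the TSA(–) arrays between 5.99 and 7.22, but intensities before scaling overlap, and the second probe overlaps too.

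*Chaf1a* in Spi-C NT was 1.68, 1.92, 2.31 and 1.85 at 1.0 mg/ml and 2.31, 2.28, 1.91 and 2.40 at 0.1 mg/ml, against 2.21 to 2.73 (median 2.46) in TSA(–). The groups overlapped, and the difference of −0.38 ± 0.10 (adjusted p = 0.00367) was lost without replicate 1 at 1.0 mg/ml (0.0106) or replicate 3 at 0.1 mg/ml (0.0114), by Tukey's HSD (0.0122) and in a fit of only the groups compared (0.0192). With replicate number as a block the *Chaf1a* call was lost too (adjusted p = 0.0424). *Daxx* was 3.40, 3.04, 3.53 and 3.39 at 1.0 mg/ml and 3.31, 3.64, 3.39 and 3.60 at 0.1 mg/ml, against 3.49 to 4.14 in TSA(–). Its difference of −0.39 ± 0.11 (adjusted p = 0.00570) was lost in 7 of 16 fits that left out an array (TSA(–) replicate 3, 4, 7 or 8, replicate 2 at 1.0 mg/ml, or replicate 1 or 3 at 0.1 mg/ml), with adjusted p from 0.0105 to 0.0171, after quantile normalization (−0.34, adjusted p = 0.0174), by Tukey's HSD (0.0125) and in a fit of only the groups compared (0.0199). The *Daxx* call was lost with replicate number as a block as well (adjusted p = 0.0385). Without replicate 3 at 0.1 mg/ml, *Nasp* was the only gene of the 10 called, 1 in place of 3. *Hira* had a difference of 0.66 (adjusted p = 0.0158) that passed without TSA(–) replicate 5 (0.73, adjusted p = 0.00970) or replicate 4 at 0.1 mg/ml (0.77, adjusted p = 0.00607). *Asf1a* had a difference of 0.32 ± 0.10 (adjusted p = 0.0208), which was called after quantile normalization (0.52, adjusted p = 0.000230). *Asf1b* had 0.14 (adjusted p = 0.167) and was likewise called with that scaling (0.37, adjusted p = 0.000485).

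Against IVF, Spi-C NT had *Supt16* higher and *Nasp*, *Asf1a* and *Asf1b* lower, 4 of 10 genes where 35.9% of all probes were called (18.6% higher and 17.3% lower) and the median over all probes was 0.12. *Supt16* was 0.77, 1.26, 1.21 and 1.27 at 1.0 mg/ml and 1.22, 0.64, 1.48 and 1.00 at 0.1 mg/ml, all above the highest IVF array at −0.12. Its rise of 1.56 ± 0.24 (adjusted p = 7.56e-06) was 1.41 and 1.75 on the other scalings. *Nasp* fell by 1.29 ± 0.16 (adjusted p = 3.47e-07) without overlap, though its second probe had −0.53 (adjusted p = 0.0764). The lead *Hira* probe was not called (0.29, adjusted p = 0.309), but the other probes were, at 1.62 and 1.24. *Nap1l1* was at 0.01 and was called at 0.36 after quantile normalization.

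*Asf1a* was 4.95, 5.02, 4.59 and 4.73 at 1.0 mg/ml and 4.87, 4.70, 4.70 and 4.76 at 0.1 mg/ml, overlapping IVF, with a difference of −0.43 ± 0.11 (adjusted p = 0.00262) that was −0.09 and not called after quantile normalization and not called without IVF replicate 5 (−0.34, adjusted p = 0.0112) or in a fit of only the groups compared (0.0175). With replicate number as a block it was −0.37 and not called (0.0172). The second *Asf1a* probe gave −0.09 and was not called (adjusted p = 0.668). *Asf1b* was 5.42, 5.53, 5.42 and 5.61 and 5.53, 5.37, 5.39 and 5.60 at these concentrations, below all IVF arrays. Its fall of 0.40 ± 0.08 (adjusted p = 0.000310) was −0.02 and not called after quantile normalization. Between 1.0 and 0.1 mg/ml, limma called 0 of 10 genes and Tukey's HSD called 0, where limma called 0.00506% of all probes. An unadjusted limma p under 0.05 was found for 1 of the 10 genes (*Chaf1a*, −0.29) and for 1624 of the 39520 probes. The widest 95% intervals were those of *Supt16* (−0.61 to 0.69) and *Hira* (−1.04 to 0.16), so differences of that size were not detectable with 4 arrays each.

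Of the 39 other genes, 5 rose and 11 fell in Spi-C NT against TSA(–), 41% called against 20.7% of all probes, with a median of −0.07 against 0.13 over all probes. *Nap1l5* fell by 1.24 ± 0.33 and *Chd1*, a remodeller that spaces nucleosomes, by 0.94 ± 0.16, while *Ubn1*, the partner of HIRA, rose by 1.06 ± 0.19 and *Npm3* by 0.97 ± 0.26. Against IVF 5 rose and 9 fell, 35.9% called as among all probes (35.9%), with a median of −0.26 against 0.12. There *Znhit1* rose by 1.5 ± 0.24 and *Ubn1* by 1.38 ± 0.20, while *Tspyl1* fell by 1.28 ± 0.12 and *Npm1* by 0.92 ± 0.14. All 8 kept their sign on the other scalings, though *Npm3* was not called with arrays centred on the median (adjusted p = 0.0323). Between the concentrations 0 of the 39 were called by limma or by Tukey's HSD.

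The donor cells differed from the embryos in 8 of the 10 genes, 2 higher and 6 lower in Cumulus than in IVF, where 55.2% of all probes were called (23.9% higher and 31.3% lower). The median over all probes was −0.14, but 0.75 with arrays centred on the median and 0.12 after quantile normalization. *Asf1b* was lower on all 3 scalings, with −0.46, 0.02, −0.08 and 0.72 in Cumulus against 5.69 to 6.03 in IVF. Its difference of −5.83 ± 0.19 (adjusted p = 1.40e-21) was 57.1-fold, and −4.94 and −6.13 on the other scalings. *Chaf1a* was −1.26, −1.42, −2.22 and −1.72 in Cumulus and fell by 3.74 ± 0.29 (adjusted p = 2.31e-12). *Chaf1b* was −0.44, −0.61, −0.71 and −0.65 and fell by 2.54 ± 0.24 (adjusted p = 1.74e-10).

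The 6 genes called lower did not overlap between Cumulus and IVF on the main scaling. The share of all probes without overlap was not computed, so this says little of these genes in particular. *Nasp* was 3.71, 4.09, 4.51 and 3.94 in Cumulus and fell by 2.56 ± 0.22 (adjusted p = 2.23e-11). Its second probe was also called lower, but it was well above background on only 1 of 4 Cumulus arrays and gives no exact size. *Nap1l1* was 3.58, 3.09, 3.48 and 3.77 and fell by 1.65 ± 0.18, or 0.75 with arrays centred on the median. *Asf1a*, the ASF1 form less tied to division, was 3.85, 3.72, 4.44 and 4.22; its fall of 1.16 ± 0.18 (adjusted p = 2.12e-06) was −0.26 and not called with that scaling, while its second probe fell by 6.66 ± 0.29. *Ssrp1* was 5.07, 4.69, 4.81 and 5.27, with −0.40 ± 0.14 (adjusted p = 0.0167) that became 0.49, called, when arrays were centred on the median, and that passed without Cumulus replicate 4 (−0.51, adjusted p = 0.00524).

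*Supt16* was 0.99, 1.26, −0.04 and 1.00 in Cumulus, above every IVF array, with a rise of 1.26 ± 0.39 (adjusted p = 0.00532). That call was lost without IVF replicate 3, 4 or 5 or Cumulus replicate 1, 2 or 4 (adjusted p = 0.0101 to 0.0254, difference 1.11 without Cumulus replicate 2) and by Tukey's HSD (0.0478). *Daxx* was 3.37, 3.5, 4.03 and 3.38, with a difference of 0.21 ± 0.16 (adjusted p = 0.272), or 1.11 and called when arrays were centred on the median. *Hira* was −3.10, −3.28, −2.93 and −2.85 on its lead probe and rose there by 0.86 ± 0.23 (adjusted p = 0.00150), but A_52_P98232 had −0.80 (adjusted p = 0.0778). Probe A_52_P49712 was not well above background on any Cumulus array and was at least 7.96-fold lower than in IVF. That is a bound against the lowest signal well above background on each array, and the bound was not tested. The limma call of this probe (adjusted p = 5.88e-06) belongs to the difference without the bound, which gives no exact size. Of the 39 other genes 5 rose and 21 fell, 66.7% called against 55.2% of all probes, and among the largest differences were those of *Npm2* (−7.28 ± 0.28), *Nap1l5* (6.77 ± 0.64) and *Znhit1* (3.88 ± 0.43); *Rbbp7* and *Hjurp* changed sign with arrays centred on the median.

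The order of the mean levels across the 7 groups is given on the main scaling (to the 75th percentile). *Chaf1a* and *Chaf1b* ran from TSA(+) at 2.50 and 2.49 down to OC at −1.88 and −2.59, with overlap between each neighbour among the embryo groups and a gap before Cumulus (−1.66 and −0.60). *Asf1a*, *Asf1b*, *Nap1l1*, *Daxx*, *Ssrp1* and *Supt16* were highest in OC without overlap with the next group. The share of all probes with such a gap was not computed. After quantile normalization, however, TSA(–) was above OC for *Nap1l1* and *Ssrp1* (by 0.46 and 0.37, both called). With that scaling IVF was above OC for *Asf1b* (by 0.27, not called). *Nasp* had its lowest levels in Spi-C NT at 0.1 and at 1.0 mg/ml (5.38 and 5.28) and Cumulus (4.06). As a description over 39 arrays, which share groups and slides, the Pearson r was 0.93 between *Chaf1a* and *Chaf1b*, 0.98 between *Asf1a* and *Ssrp1* and 0.85 between *Ssrp1* and *Supt16*. Likeness was searched among tested probes of named genes, other than the members, well above background on every array of some group. Those most like *Chaf1a* included *Fem1c* and *G3bp1* (r = 0.976 and 0.974), and the 3 most like *Chaf1b* were *Prps1*, *Folr1* and *Cstf1* (0.98 each). For *Asf1a* they were *Nudt7*, *Acbd3* and *Trnt1* (0.99 each), and for *Asf1b* *Nlrp4c*, *Tmcc3* and *Nlrp4a* (0.99 each). *Nap1l1* was most like *Sinhcaf*, *Cfap97* and *Zfp655*, and *Ssrp1* most like *Nup54*, *Sptlc1* and *Lrrc8d* (0.99 each). For *Daxx* they were *Aldh4a1*, *C1qtnf12* and *Smu1* (0.98 to 0.99), for *Nasp* *Amd1*, *Zfp987* and *Zswim1* (0.945 to 0.953), for *Supt16* *Psmd9*, *Marchf6* and *Rnf145* (0.939 to 0.943), and for *Hira* *Afap1*, *Cspg4* and *Zpld1* (0.77 to 0.79).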

How the data were processed

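The 10 genes and the list of 39 other chaperones were chosen with earlier results of these data known. The authors deposited scanner output of 39 Cy3 arrays, whose processed intensity had been background-subtracted with Agilent Feature Extraction 9.5.3.1 (10.5.1.1 for Cumulus and Spi-C NT, per the file headers) and not normalized between arrays. A deposited table of log2 values was used only as an alternative; it equals the scaled scanner values minus each probe's median (Pearson r = 1.00 over probes and arrays).

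From log2 intensities the array's own 75th percentile was subtracted, without outlier spots (1820 missing values over all arrays). Probes with at least 10 units on at least 1 IVF or SCNT array were compared with limma 3.58.1 in R 4.3.3 at a Benjamini-Hochberg adjusted p under 0.01, in fits of OC, IVF, TSA(–), TSA(+) and Cumulus, and of the 2-cell groups. The fits were tested on simulated data. The labels number the samples of a group without saying whether they come from separate animals or days, so p-values measure only the spread between these samples. Named are the 10 genes, up to 4 called listed genes with the largest difference per comparison, and the 3 genes most like each member. Some genes that this rule names are not reported here. Alternatives were Tukey's HSD, only the groups compared, quantile or median scaling, normexp (offset 50), the authors' table, filters on dim probes, an adjusted p under 0.05, other probes, blocks by slide, scan day or replicate number, and leaving out each array. For Tukey's HSD, the p-values of the one-way test and of Tukey's HSD were each adjusted by Benjamini-Hochberg over all probes. The larger is given, so these values are stricter than plain Tukey p-values. Of the 43 listed genes, 4 were not matched to a probe and are not analysed here. The number of arrays limits the precision.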

Additional observations from a re-analysis of the deposited data

Results flagged for a closer look

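In 70 sets of values (10 lead probes in 7 groups), 6 held an array that lay farther from the rest than Dixon's 95% limit, and chance gives such an array in about 1 of 20 groups. *Asf1a* in OC replicate 6 was 7.96 (nearest 8.53). *Asf1b* in TSA(+) replicate 3 was 5.56 (nearest 5.38). *Chaf1b* at 1.0 mg/ml of *Spi-C* mRNA was 1.97 in replicate 2 (nearest 2.28). *Nasp* in IVF replicate 1 was 6.45 (nearest 6.62). *Supt16* at 1.0 mg/ml was 0.77 in replicate 1 (nearest 1.21), and in TSA(+) replicate 4 it was 0.90 (nearest 0.20). The wide spread of *Nasp* in TSA(–) did not meet this limit, since 3 arrays lay apart.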

How the results depend on the processing

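Of the 40 called differences among 90 (10 genes in 9 comparisons), 22 kept direction and call in all 12 other settings run on the lead probes, and 32 did when each array was left out. Not all of these settings could remove a call. An adjusted p under 0.05 only loosens the threshold, and the authors' table holds nearly the same values as the main scaling. Quantile normalization reversed, for IVF minus OC, *Asf1b* (0.27), *Nasp* (1.56), *Nap1l1* (0.14) and *Ssrp1* (0.31), and for TSA(–) minus OC, *Nasp* (1.68), *Nap1l1* (0.46) and *Ssrp1* (0.37). Centring on the median reversed *Ssrp1* in Cumulus minus IVF (0.49). Other *Hira* probes reversed IVF minus OC (2.43), TSA(–) minus OC (1.79 and 3.42), TSA(+) minus IVF (0.68 and 0.85) and Cumulus minus IVF (−4.16 and −0.80). The value of −4.16 gives no exact size, since its probe was not well above background on any Cumulus array. The number of members called for TSA(–) minus IVF went from 3 to 1 with Tukey's HSD and with the replicate block, and from 1 to 3 when arrays were left out. For TSA(+) minus IVF it was 1 with median centring and 5 with normexp. For Spi-C NT minus TSA(–) it was 1 with Tukey's HSD, only the groups compared or the replicate block, 5 at an adjusted p under 0.05, and 1 to 4 when arrays were left out. Of the 39 listed genes, 7 were called in TSA(+) minus IVF, and 11 with only the groups compared, quantile normalization or normexp and 13 at an adjusted p under 0.05; 16 were called in Spi-C NT minus TSA(–) and 9 with the replicate block, and 14 in Spi-C NT minus IVF and 25 at an adjusted p under 0.05. The cause of these changes was not tested.

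Over all probes, calls went from 55 to 10 (Tukey's HSD), 11 (only the groups compared), 371 (normexp) and 512 (adjusted p under 0.05) for TSA(+) minus TSA(–), from 7421 to 4690 (Tukey's HSD) for TSA(–) minus IVF, from 7481 to 4661 (Tukey's HSD) and 11544 (adjusted p under 0.05) for TSA(+) minus IVF, from 8175 to 16990 (normexp), 12324 (adjusted p under 0.05) and 5257 (replicate block) for Spi-C NT minus TSA(–), and from 14185 to 24408 (normexp) for Spi-C NT minus IVF; for the 2 concentrations they were 0 to 4 in place of 2. Same-numbered arrays correlated by −0.09 to 0.15 in their deviations. Differently numbered arrays were not set beside them, so whether the numbers pair the samples cannot be told from these values. The correlation within slides was 0.03 (first fit) and 0.06 (second fit). Signal over background limited the *Hira* probes A_52_P98232 and A_52_P49712, well above background on 2 and 4 of 7 OC arrays.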
